A study of Mus musculus with 2 samples.

Results

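The Hox genes are the 39 mouse homeobox genes named Hoxa, Hoxb, Hoxc or Hoxd with a position number from 1 to 13, and they were taken by these names from the 25289 gene columns of a single-cell count table of mouse bone marrow stroma. All 39 had a column. The Hoxa cluster gave 11 members, the Hoxb cluster 10, and the Hoxc and Hoxd clusters 9 each. In GENCODE M21 (build GRCm38) the clusters lie on chromosomes 6 (Hoxa), 11 (Hoxb), 15 (Hoxc) and 2 (Hoxd). The cells came from mice of the strain labelled C56BL/6 at an age of 8 to 16 weeks; femurs, tibiae and pelvis were crushed, bone fragments were digested with collagenase and dispase, and viable cells negative for CD45 (a leukocyte marker), Ter119 (an erythroid marker) and CD31 (an endothelial marker) were sorted and encapsulated in droplets (inDrops). The labels give 1 untreated group of 2 samples, Stroma1 (libraries 1.1 and 1.2) and Stroma2 (libraries 2.1, 2.2 and 2.3), and do not say whether these came from separate animals, nor how many animals were pooled, so the p-values below measure only the spread between these samples, which may be technical. The comparisons are between the classes that the authors gave to the cells that passed their filter: MSC (mesenchymal stromal cells), 2 classes with adipocyte names (Adipocyte progenitor and Pre-adipocyte) and 4 with bone or cartilage names (Osteoblast progenitor, Pro-osteoblast, Pro-chondrocyte and the mixed class Pre-osteoblast/chondrocyte).

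Hox genes code for transcription factors that bind DNA through the homeodomain and give cells a position along the body axis and along the limb. Within each cluster the genes lie on the chromosome in the order of their numbers, and low numbers are used further towards the head and high numbers further towards the tail and the limb ends. Stromal cells of adult bones are known to keep part of the Hox pattern of the place where the bone formed, and Hox proteins act with cofactors of the TALE family (Pbx, Meis and Pknox).

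The members are paralogs with a shared DNA-binding part, and the stretches below show this similarity. Droplet libraries count transcript ends, and how many reads covered these stretches was not examined. Each is the part of the homeobox that codes for the third, DNA-contacting helix, 51 bases read 5′ to 3′ from the GENCODE M21 transcripts (build GRCm38), and capitals mark the 28 bases that are the same in all 9 members that had enough counts to be tested, of which 6 are shown. Each of these stretches lay in the last exon of its transcript. The positions are chr6:52202638-52202688 for Hoxa5 and chr6:52232560-52232610 for Hoxa10, both on the minus strand. On the plus strand they are chr11:96353108-96353158 for Hoxb2, chr15:103010877-103010927 for Hoxc6, chr15:102984053-102984103 for Hoxc9 and chr15:102970971-102971021 for Hoxc10.
Hoxa5: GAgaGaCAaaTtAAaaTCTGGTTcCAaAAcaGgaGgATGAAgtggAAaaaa
Hoxa10: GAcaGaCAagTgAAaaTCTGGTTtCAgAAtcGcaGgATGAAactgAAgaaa
Hoxb2: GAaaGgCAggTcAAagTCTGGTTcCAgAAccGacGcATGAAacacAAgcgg
Hoxc6: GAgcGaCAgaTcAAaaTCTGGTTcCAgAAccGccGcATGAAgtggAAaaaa
Hoxc9: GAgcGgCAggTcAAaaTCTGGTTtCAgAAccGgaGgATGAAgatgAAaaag
Hoxc10: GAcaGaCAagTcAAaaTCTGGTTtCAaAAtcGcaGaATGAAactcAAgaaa
Over the whole homeobox of 180 bases, the 36 pairs among the 9 tested members were 57.8% to 83.9% identical. The longest run of bases shared exactly between the transcripts of a pair was 12 to 47 bases, and the longest was that of Hoxa7 and Hoxb4. The deposited counting is not described in the sources used here, so how reads inside such a run were assigned is not known.

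After the authors' filter, Stroma1 held 948 cells and 1658990 counts, and Stroma2 held 1899 cells and 3687913 counts. Pro-osteoblast cells were deepest, with median totals of 4422 and 4201 counts per cell against 1377.5 and 1160 in MSC. The sum of 6 niche stroma genes (Cxcl12, Lepr and others) was 71147 and 73116 counts per 1000000 counts (CPM) in MSC. The sum of 6 osteoblast genes (Col1a1, Bglap and others) was 211854 and 210014 CPM in Pro-osteoblast and 24050.1 and 20856 in Pre-osteoblast/chondrocyte. It was 4736 and 6544 in Osteoblast progenitor, not above the 6278 and 6918 of MSC. Taken singly, however, 4 of the 6 were called higher in Osteoblast progenitor than in MSC and 1 lower in the edgeR fit described below. Their median log2 change was 2.50, and 7.93% of all tested genes were called in either direction. All 6 cartilage markers were at 0 in Pro-chondrocyte, which held 4 and 10 cells and is given as values only, and their sum reached 358 and 755 CPM in Pro-osteoblast and 120 and 1055 in Pre-adipocyte. No list of adipocyte markers was read, so the adipocyte names are the authors' alone. Neutrophil markers reached 2022 and 344 CPM in Pre-adipocyte, with Ngp, Camp, Elane and Mpo at 0, against 24.7 and 30.2 CPM in MSC. In Osteoblast progenitor they stood at 16.8 and 355 CPM. The 2 neutrophil genes that could be tested were called higher than in the mean of the other classes in Pre-adipocyte and in Osteoblast progenitor. Libraries of the same sample shared 32 cell barcodes in Stroma1 and 203 in Stroma2, and 12 were shared between the samples; results resting on them are given with each barcode kept once where this changed a call.

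Hox transcripts were rare but broadly present. Over the 2847 passing cells, the members summed to 2126 counts, 0.0398% of all counts, and 34 of the 39 members had at least 1 count (32 in Stroma1 and 32 in Stroma2, of which 30 were in both). Hoxa genes held 960 counts (45.2%), Hoxc genes 709 (33.3%), Hoxb genes 396 (18.6%) and Hoxd genes 61 (2.87%). All 10 Hoxb genes, 9 of 11 Hoxa genes, 8 of 9 Hoxc genes and 7 of 9 Hoxd genes were detected, but 20 or more counts were reached by 6 Hoxa, 7 Hoxc, 3 Hoxb and only 1 Hoxd gene (Hoxd8).

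**Figure D1:**
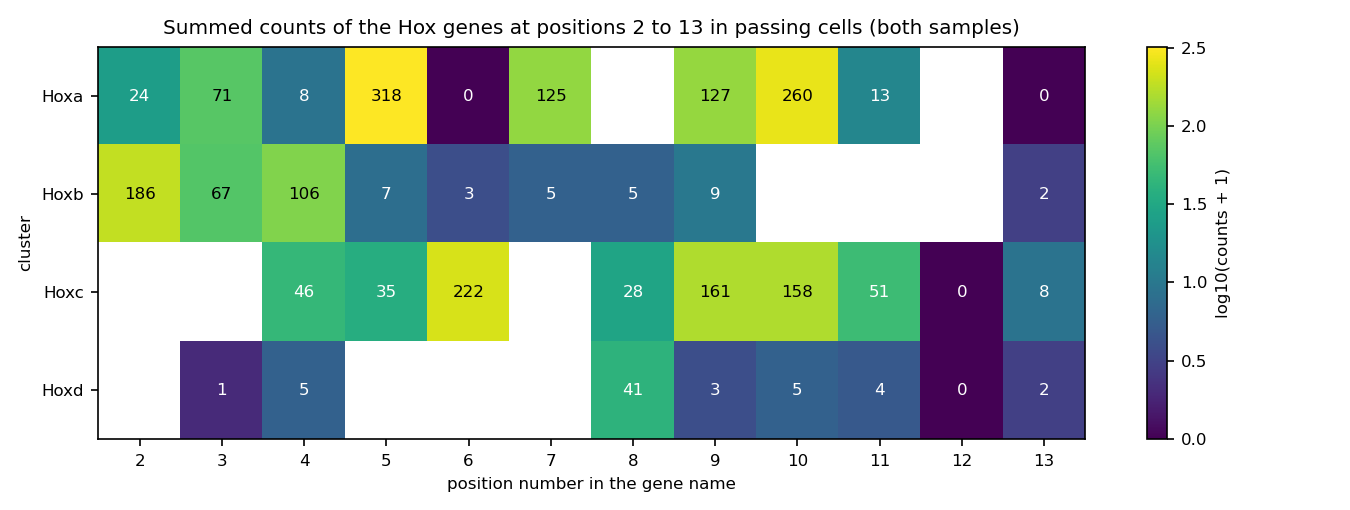
Summed counts of the Hox genes at positions 2 to 13 over the passing cells of both samples, by cluster (rows) and position number (columns); the colour is log10(counts + 1), and white fields are positions with no mouse gene in that cluster. The high values lie at positions 5, 7, 9 and 10 of Hoxa, 2 to 4 of Hoxb and 6, 9 and 10 of Hoxc, and the Hoxd row reaches 41 counts at position 8.

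By position, members 1 to 4 held 534 counts (25.1%), members 5 to 8 held 789 (37.1%) and members 9 to 13 held 803 (37.8%). Position 10 was the highest single position with 423 counts, followed by position 5 with 360 and position 9 with 300. Positions 11, 12 and 13, which pattern the outer limb and the tail in the embryo, held 68, 0 and 12 counts. Only positions 12 and 13 were almost silent. Position 11, where Hoxc11 had 51 counts, was close to position 8 (74 counts) and above position 1 (20 counts). Hoxa6, Hoxa13, Hoxc12, Hoxd1 and Hoxd12 had 0 counts in both samples, and a floor of 3 counts sets their level at no more than 0.561 CPM.

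The counts were concentrated in few members. Hoxa5 had most counts (318, 101 in Stroma1 and 217 in Stroma2), followed by Hoxa10 (260), Hoxc6 (222), Hoxb2 (186), Hoxc9 (161), Hoxc10 (158), Hoxa9 (127), Hoxa7 (125) and Hoxb4 (106), and these 9 members held 78.2% of the Hox counts. Per kilobase of exon the order at the top was Hoxa5 (169 counts), Hoxc6 (92.2), Hoxc10 (82.8) and Hoxa10 (79.5), while Hoxa9 dropped to rank 10 (22.8). Droplet libraries count transcript ends, so neither scale gives an exact order of transcript numbers.

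Of the 30 members under the count filter of the tests, 25 were detected, and 8 of them had 20 or more counts. Hoxa3 had 71 counts (31 in Stroma1 and 40 in Stroma2), of which MSC held 41, and Hoxb3 had 67 (24 and 43), of which MSC held 16. Hoxc11 had 51 counts (19 and 32), Hoxc4 46 (17 and 29), Hoxd8 41 (12 and 29), Hoxc5 35 (14 and 21), Hoxc8 28 (9 and 19) and Hoxa2 24 (8 and 16), and MSC, the class with most cells, held the most counts of each. Hoxc11 had 24 counts in MSC and 16 in Adipocyte progenitor but 1 in Pro-osteoblast, where it stood at 0 CPM in Stroma1 and 0.689 CPM in Stroma2 (95% Poisson interval 0.0175 to 3.84). Hoxa11 had 13 counts (7 and 6), 6 of them in MSC.

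The other 15 detected members had 1 to 9 counts, given here for Stroma1 and then Stroma2. Those with most counts in Pro-osteoblast were Hoxb9 (1 and 8), with 8 of its 9 counts there from 4 cells, and Hoxc13 (2 and 6), with 7 of 8 from 7 cells. Hoxb5 (2 and 5), Hoxb6 (1 and 2) and Hoxd10 (2 and 3) also had most counts in that class, but only 3, 2 and 3 of them. MSC held the most counts of Hoxa4 (3 and 5), Hoxb7 (3 and 2), Hoxb8 (1 and 4), Hoxd3 (1 and 0), Hoxd4 (0 and 5), Hoxd9 (2 and 1) and Hoxd11 (2 and 2). Hoxb1 (4 and 2) was tied between MSC and Osteoblast progenitor at 2 counts each, Hoxb13 (2 and 0) between MSC and Pre-adipocyte at 1 each, and Hoxd13 (0 and 2) between MSC and Osteoblast progenitor at 1 each. At these numbers classes cannot be compared. The annotation joins some of these genes: Hoxd3 and Hoxd4 share 388 exon bases, and 35.0% of Hoxa11 lies opposite the antisense RNA Hoxa11os (9 counts).

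The number of members detected was 32 in MSC, 26 in Adipocyte progenitor, 21 in Pre-adipocyte, 25 in Osteoblast progenitor, 17 in Pre-osteoblast/chondrocyte, 4 in Pro-chondrocyte and 26 in Pro-osteoblast. It was highest in the class with most counts (MSC, 1755382) and lowest in that with fewest (Pro-chondrocyte, 16113). Pro-osteoblast, with 1638025 counts, had no more members detected than Adipocyte progenitor with 795007. The floor of 3 counts was 1.71 CPM in MSC, 3.77 in Adipocyte progenitor, 8.83 in Pre-adipocyte, 4.78 in Osteoblast progenitor, 17.1 in Pre-osteoblast/chondrocyte, 186 in Pro-chondrocyte and 1.83 in Pro-osteoblast, so a member at 0 in Pre-osteoblast/chondrocyte could still have been at the level that most members had in MSC.

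Scaled by all counts of a class, the mean summed Hox level was highest in MSC, followed by Pre-adipocyte with an overlapping range, and lowest in Pro-osteoblast. It was 513 and 544 CPM in the 2 samples of MSC (528 ± 21.9, SD, n = 2), 432 and 398 in Adipocyte progenitor (415 ± 24.1), 514 and 432 in Pre-adipocyte (473 ± 57.5), 419 and 450 in Osteoblast progenitor (434 ± 21.7), 398 and 376 in Pre-osteoblast/chondrocyte (387 ± 15.9) and 267 and 215 in Pro-osteoblast (241 ± 36.8). Both Pro-osteoblast samples lay below all samples of the other 5 classes. Without Hoxb2 the Pro-osteoblast mean was 159 ± 24.7 CPM and that of MSC 514 ± 25.2. This order depended on the scaling. The 6 osteoblast genes alone held 211854 and 210014 CPM in Pro-osteoblast, and the TMM scaling used in the tests, which trims such genes, raised Pro-osteoblast values relative to MSC by 1.14 on the log2 scale, which brought the Hox sums to 454 in Pro-osteoblast and 453 in MSC. Pro-chondrocyte had 6 Hox counts, 0 in Stroma1 and 6 in Stroma2 (3 of Hoxc9).

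**Figure D2:**
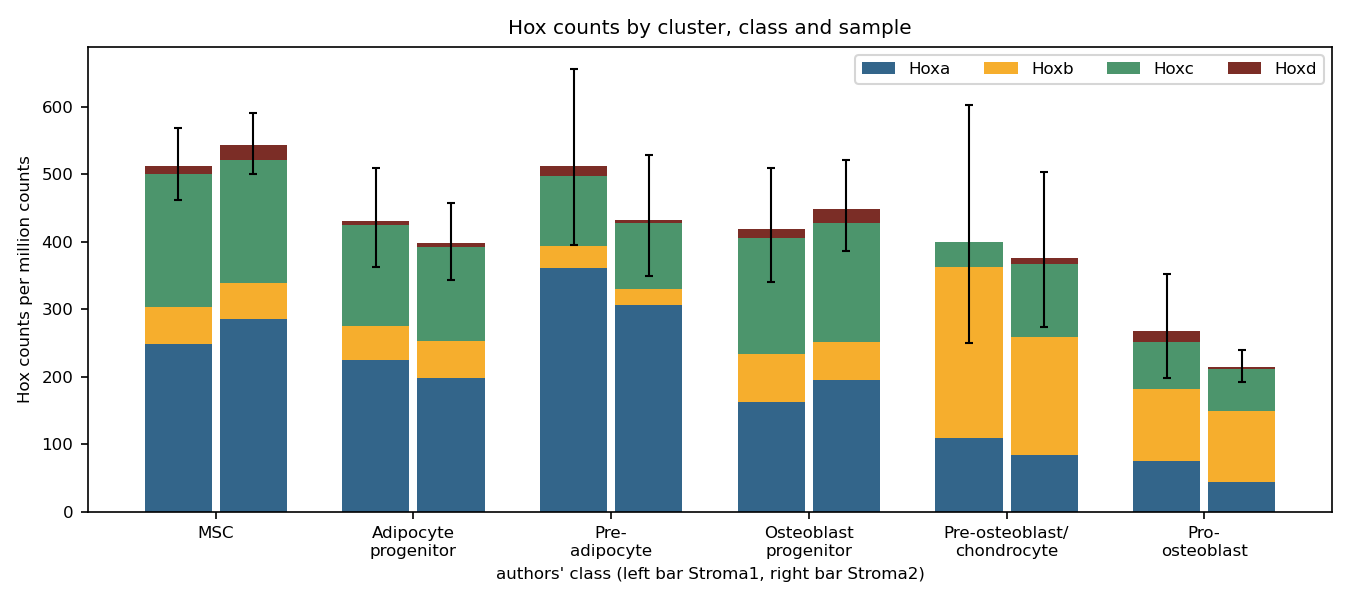
Hox CPM in each class, Stroma1 left and Stroma2 right, stacked by cluster; black bars are exact 95% Poisson intervals of the sum, which cover counting error only. Hoxa and Hoxc make up most of the height in MSC, Adipocyte progenitor, Pre-adipocyte and Osteoblast progenitor, and the Hoxb part is the widest in Pre-osteoblast/chondrocyte and Pro-osteoblast.

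The make-up of the Hox counts does not depend on scaling between classes. It differed between Pre-osteoblast/chondrocyte and Pro-osteoblast, called the osteoblast-side classes here, and the other classes listed below. Osteoblast progenitor is counted with the latter. Hoxb genes held 10.7% and 9.86% of the Hox counts in the 2 samples of MSC, 11.6% and 13.8% in Adipocyte progenitor, 6.25% and 5.38% in Pre-adipocyte and 17.0% and 12.6% in Osteoblast progenitor. They held 63.6% and 46.7% in Pre-osteoblast/chondrocyte and 40.0% and 49.4% in Pro-osteoblast. The 2 sets of samples did not overlap, but this grouping of classes was not planned beforehand and no test between the sets was made. Hoxb2 gave most of this in Pro-osteoblast, with 124 of 174 Hoxb counts, while in Pre-osteoblast/chondrocyte the 35 Hoxb counts were those of Hoxb2 (11), Hoxb3 (11), Hoxb4 (11) and other members. In Stroma1 this share rests on 14 of 22 Hox counts, and a single cell gave 6 of the 14 (all Hoxb3); without that cell it was 53.3%. Hoxa genes ran the other way, from 70.7% in Pre-adipocyte and 50.9% in MSC to 23.9% in Pre-osteoblast/chondrocyte and 21.3% in Pro-osteoblast. By position, members 1 to 4 held 18.9% in MSC, 12.7% in Pre-adipocyte, 58.2% in Pre-osteoblast/chondrocyte and 47% in Pro-osteoblast. Members 9 to 13 held 41.2%, 29.3%, 23.9% and 31.5% in the same order. In Pro-osteoblast, 124 of the 170 counts at positions 1 to 4 were those of Hoxb2. Without Hoxb2, members 9 to 13 held 114 of 238 counts there, 384 of 908 in MSC and 16 of 56 in Pre-osteoblast/chondrocyte. The Pro-osteoblast share then no longer lay below that of MSC.

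For the tests, counts were summed per sample and class and the 6 classes with at least 15 cells in each sample were fitted together with edgeR. The count filter kept 6229 genes and 9 Hox members, and a member was called at an adjusted p under 0.05 over all 6229. The classes came from the expression of the same cells, and whether Hox genes entered their making is not given in the sources used here. Against the mean of the other 5 classes, 2 of the 9 were called in MSC (20.6% of all tested genes were), 1 in Pre-adipocyte (20.7%), 2 in Pre-osteoblast/chondrocyte (12.2%) and 1 in Pro-osteoblast (39.3%). None was called in Adipocyte progenitor (15.4%) or Osteoblast progenitor (9.15%) by edgeR or by DESeq2; at an unadjusted p under 0.05 edgeR gave 1 and 0, and DESeq2 1 and 0. The median log2 change of the 9 members, beside that of all tested genes, was 0.58 (0.02) in MSC, 0.33 (0.06) in Adipocyte progenitor, -0.30 (0.02) in Pre-adipocyte, -0.09 (0.06) in Osteoblast progenitor, -0.26 (-0.06) in Pre-osteoblast/chondrocyte and -0.09 (0.03) in Pro-osteoblast, where 5 of the 9 were below 0. On raw totals it was 0.97 (0.42) in MSC, 0.25 (0.41) in Osteoblast progenitor, where its sign turned, and -1.20 (-1.07) in Pro-osteoblast, where 8 of the 9 were below 0.

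Against MSC, the class at the start of the authors' paths, 1 member was called in Pre-adipocyte (10.3% of all tested genes were), 2 in Pre-osteoblast/chondrocyte (18.0%) and 3 in Pro-osteoblast (38.6%). None was called in Adipocyte progenitor (4.17%) or Osteoblast progenitor (7.93%) by either tool, and none had an unadjusted p under 0.05 there in edgeR or DESeq2. These comparisons share the MSC samples. Counts of 0 to 3 among 9 members lay below the share of all genes called in some comparisons and above it in others. Against the mean of the other classes, 1 of 9 stood beside 39.3% in Pro-osteoblast and 2 of 9 beside 12.2% in Pre-osteoblast/chondrocyte. With so few members the group was not compared with that share, and the results below concern single members. The split of the calls moved with the scaling. In Pro-osteoblast against MSC it was 1 higher and 2 lower with TMM (19.9% and 18.7% of all tested genes) and 1 higher and 7 lower on raw totals (6.55% and 64.3%). In Pro-osteoblast against the mean of the other classes it was 1 higher and 0 lower with TMM (21.4% and 17.9%), 1 higher and 1 lower with DESeq2 size factors (18.6% and 20%) and 1 higher and 5 lower on raw totals (6.58% and 57.9%). In MSC against the mean of the other classes it was 1 higher and 1 lower with TMM (11.2% and 9.46%) and 6 higher and 0 lower on raw totals (29.4% and 4.86%).

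**Figure D3:**
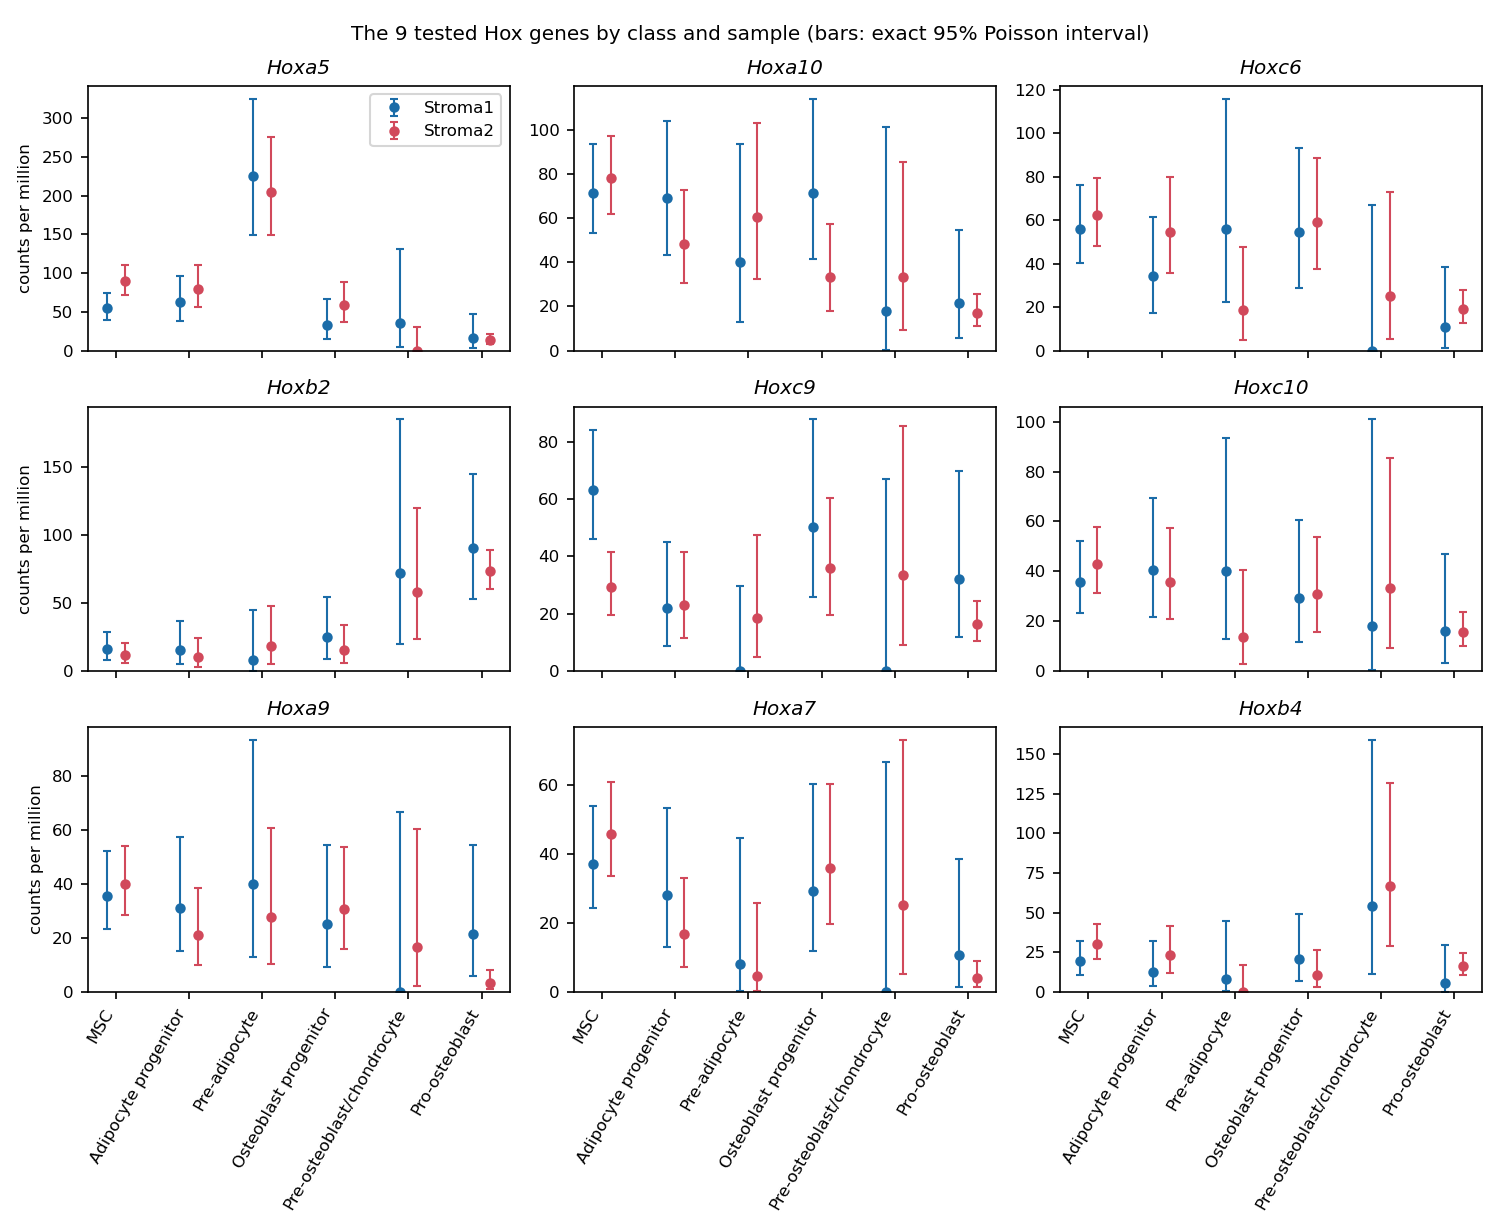
CPM of the 9 tested Hox genes in 6 classes, Stroma1 in blue and Stroma2 in red, with exact 95% Poisson intervals. Hoxb2 is high in Pro-osteoblast and Pre-osteoblast/chondrocyte, Hoxa5 is high in Pre-adipocyte, and the other members show overlapping intervals in most classes.

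Hoxb2, whose protein patterns the hindbrain in the embryo, was the osteoblast-side member. Its level was 90.8 CPM in Stroma1 (17 counts) and 73.8 in Stroma2 (107 counts) of Pro-osteoblast. It was 72.4 and 58.5 CPM in Pre-osteoblast/chondrocyte, from 4 and 7 counts. The other classes had 16.5 and 11.7 CPM (MSC), 15.6 and 10.5 (Adipocyte progenitor), 8.02 and 18.6 (Pre-adipocyte) and 25.1 and 15.4 (Osteoblast progenitor), and none of these 8 samples reached the 4 osteoblast-side ones. Each of the 5 libraries showed the high level in Pro-osteoblast, at 70.2, 108, 67.6, 103 and 58.3 CPM. Hoxb2 was higher in Pro-osteoblast than in the mean of the other classes by 3.03 (SE 0.33) on the log2 scale (edgeR adjusted p = 2.5e-13), and higher than in MSC by 3.70 (SE 0.42, adjusted p = 3.0e-12). On raw totals these changes were smaller, 1.96 and 2.49, and both were called in all 11 other fits. In Pre-osteoblast/chondrocyte it was higher than in MSC by 2.39 (SE 0.67, edgeR adjusted p = 0.00556), a call lost without library 1.2 (2.19, adjusted p = 0.0538) or library 2.2 (2.19, adjusted p = 0.0585). In MSC it was lower than in the mean of the other classes by a log2 change of -1.41 (SE 0.42, edgeR adjusted p = 0.00858), a call lost with no filter (adjusted p = 0.0525), on raw totals (0.0573) and without library 1.1 (0.0738) or library 2.2 (-1.02, 0.289). Of the Hoxb2 exon bases, 27.3% also lie on the opposite strand in Hoxb3os, an antisense RNA not analysed here, and whether counting used strand is not given.

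Hoxa5, which in the embryo acts in the cervical and thoracic skeleton and the lung, was highest in Pre-adipocyte among the 6 tested classes. Pre-adipocyte had 225 CPM in Stroma1 (28 counts) and 204 in Stroma2 (44 counts). The next classes were MSC (54.9 and 89.7 CPM) and Adipocyte progenitor (62.6 and 79.9), which did not differ from each other beyond their spread, followed by Osteoblast progenitor (33.5 and 59.1). Pro-osteoblast had 16.0 and 13.8 CPM, and Pre-osteoblast/chondrocyte had 36.2 CPM from 2 counts in Stroma1 and 0 counts in Stroma2 (95% interval up to 30.8 CPM). Both Pre-adipocyte samples lay above all others, and the 5 libraries gave 194, 256, 283, 184 and 155 CPM there. Hoxa5 was higher in Pre-adipocyte than in the mean of the other classes by 2.66 (SE 0.32) on the log2 scale (edgeR adjusted p = 6.8e-11) and higher than in MSC by 1.83 (SE 0.33, adjusted p = 9.2e-06), and both calls held in all 11 other fits. The 72 counts came from 35 cells, with at most 6 in a cell. The neutrophil markers that stood at 2022 and 344 CPM in the same class are given above, and their part in this result was not tested.

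On the osteoblast side Hoxa5 was low. Against MSC it had a log2 change of -1.23 in Pro-osteoblast (SE 0.42, edgeR adjusted p = 0.0136), which became -2.49 on raw totals and lost its call without library 2.1 (adjusted p = 0.0889). In Pre-osteoblast/chondrocyte it had -2.47 against MSC (SE 0.85, edgeR adjusted p = 0.0295) and -2.50 against the mean of the other classes (SE 0.82, adjusted p = 0.0291). Both of these rest on 2 counts where the class has 25 and 66 cells. They were lost with DESeq2 (adjusted p of 0.116 and 0.125), without library 2.1 (0.0674 and 0.0770), without library 2.2 (0.130 and 0.100) and without library 2.3 (0.107 and 0.126), and Stroma1 alone gave -0.47 and -0.72.

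Hoxa7 and Hoxb4, from the middle of their clusters, gave weaker calls. Hoxa7 had 37.0 and 45.8 CPM in MSC, 29.3 and 36.0 in Osteoblast progenitor and 28.2 and 16.8 in Adipocyte progenitor. It had 8.02 and 4.65 CPM in Pre-adipocyte (1 count in each sample), 0 and 25.1 in Pre-osteoblast/chondrocyte (0 and 3 counts) and 10.7 and 4.14 in Pro-osteoblast (2 and 6 counts). Both MSC samples were above all others. Hoxa7 was higher in MSC than in the mean of the other classes by 1.28 (SE 0.45, edgeR adjusted p = 0.0307), and its log2 change in Pro-osteoblast against MSC was -1.79 (SE 0.69, adjusted p = 0.0307; -3.02 on raw totals). Both calls were lost with DESeq2 (adjusted p of 0.0907 and 0.0671) and without library 1.1 (0.162 and 0.116), library 2.1 (0.0674 and 0.129) or library 2.3 (0.0637 and 0.0917). In Pre-adipocyte against MSC it had -2.47 (edgeR adjusted p = 0.0944), and on raw totals -2.78 (0.0321). Of the Hoxa7 exon bases, 20.4% lie opposite Hoxaas3, an antisense RNA with 4 counts in passing cells.

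Hoxb4, a factor also known from blood stem cell expansion, had 54.3 and 66.8 CPM in Pre-osteoblast/chondrocyte (3 and 8 counts), above all other samples. It had 19.2 and 30.2 CPM in MSC, 12.5 and 23.1 in Adipocyte progenitor, 8.02 and 0 in Pre-adipocyte, 21 and 10.3 in Osteoblast progenitor and 5.34 and 16.5 in Pro-osteoblast. The log2 change of Pre-osteoblast/chondrocyte against the mean of the other classes was 2.14 (SE 0.73, edgeR adjusted p = 0.0397). With each barcode kept once it was 1.59 (adjusted p = 0.260), with no filter 1.91 (0.0946), and without library 1.1, 2.1, 2.2 or 2.3 the adjusted p was 0.113, 0.0722, 0.0805 and 0.195. The Pre-adipocyte level differed from the others without library 1.2 only (log2 change -6.21, adjusted p = 0.0216), a fit in which the class held 0 or 1 counts. Hoxb3, its neighbour, was under the filter; it had 127 and 33.4 CPM in Pre-osteoblast/chondrocyte (7 and 4 counts) against 9.60 and 8.77 in MSC (7 and 9 counts). Of its 11 counts in Pre-osteoblast/chondrocyte, 6 came from a single cell of Stroma1, and the other 5 from 1 cell of Stroma1 and 3 of Stroma2. With no filter its log2 change there was 2.45 against the mean (edgeR adjusted p = 0.0179) and 2.74 against MSC (0.0104). The other member under the filter that was called in this fit was Hoxa3, with 32.9 and 16.6 CPM in MSC and 5.34 and 0.689 in Pro-osteoblast, and its log2 change there against MSC was -2.92 (SE 0.96, edgeR adjusted p = 0.0216).

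The other 5 tested members were Hoxc6 and the members with position numbers 9 and 10 in Hoxa and Hoxc, and none of them was called in any class with TMM scaling and all libraries. Hoxa10, known for its part in the hind limb and the uterus, had 71.3 and 78.0 CPM in MSC, 68.8 and 48.4 in Adipocyte progenitor, 40.1 and 60.4 in Pre-adipocyte, 71.2 and 33.4 in Osteoblast progenitor, 18.1 and 33.4 in Pre-osteoblast/chondrocyte and 21.4 and 17.2 in Pro-osteoblast. Hoxa9, a factor known from leukaemia, had 35.7 and 40.0 CPM in MSC, 31.3 and 21 in Adipocyte progenitor, 40.1 and 27.9 in Pre-adipocyte, 25.1 and 30.8 in Osteoblast progenitor, 0 and 16.7 in Pre-osteoblast/chondrocyte and 21.4 and 3.45 in Pro-osteoblast. For both, MSC lay above Pro-osteoblast in each sample, with a log2 change against MSC of -0.80 for Hoxa10 (SE 0.41, edgeR adjusted p = 0.116) and -1.34 for Hoxa9 (SE 0.67, adjusted p = 0.111) that became -2.05 and -2.56 on raw totals, where both were called. Hoxa9 was also called lower there without library 1.1 (-2.49, adjusted p = 0.0186).

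Hoxc6 had 56.2 and 62.4 CPM in MSC, 34.4 and 54.7 in Adipocyte progenitor, 56.2 and 18.6 in Pre-adipocyte, 54.5 and 59.1 in Osteoblast progenitor, 0 and 25.1 in Pre-osteoblast/chondrocyte and 10.7 and 19.3 in Pro-osteoblast. Hoxc9 had 63.1 and 29.2 CPM in MSC, 21.9 and 23.1 in Adipocyte progenitor, 0 and 18.6 in Pre-adipocyte, 50.3 and 36.0 in Osteoblast progenitor, 0 and 33.4 in Pre-osteoblast/chondrocyte and 32.0 and 16.5 in Pro-osteoblast. Hoxc10 had 35.7 and 42.9 CPM in MSC, 40.7 and 35.8 in Adipocyte progenitor, 40.1 and 13.9 in Pre-adipocyte, 29.3 and 30.8 in Osteoblast progenitor, 18.1 and 33.4 in Pre-osteoblast/chondrocyte and 16.0 and 15.9 in Pro-osteoblast. These thoracic and lumbar members of the Hoxc cluster were present in every one of the 6 classes, and the samples of 1 class differed as much as many classes did (Hoxc9 in MSC, for example). Against MSC their log2 changes in Pro-osteoblast were -0.58 (SE 0.44), 0.14 (SE 0.50) and -0.10 (SE 0.50) with TMM, and all 3 were called lower on raw totals (-1.83, -1.09 and -1.34), and the sign of the Hoxc9 change turned with the scaling. Hoxc10 shares 166 exon bases on the same strand with Hoxc5, and reads there cannot be told apart.

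**Figure D4:**
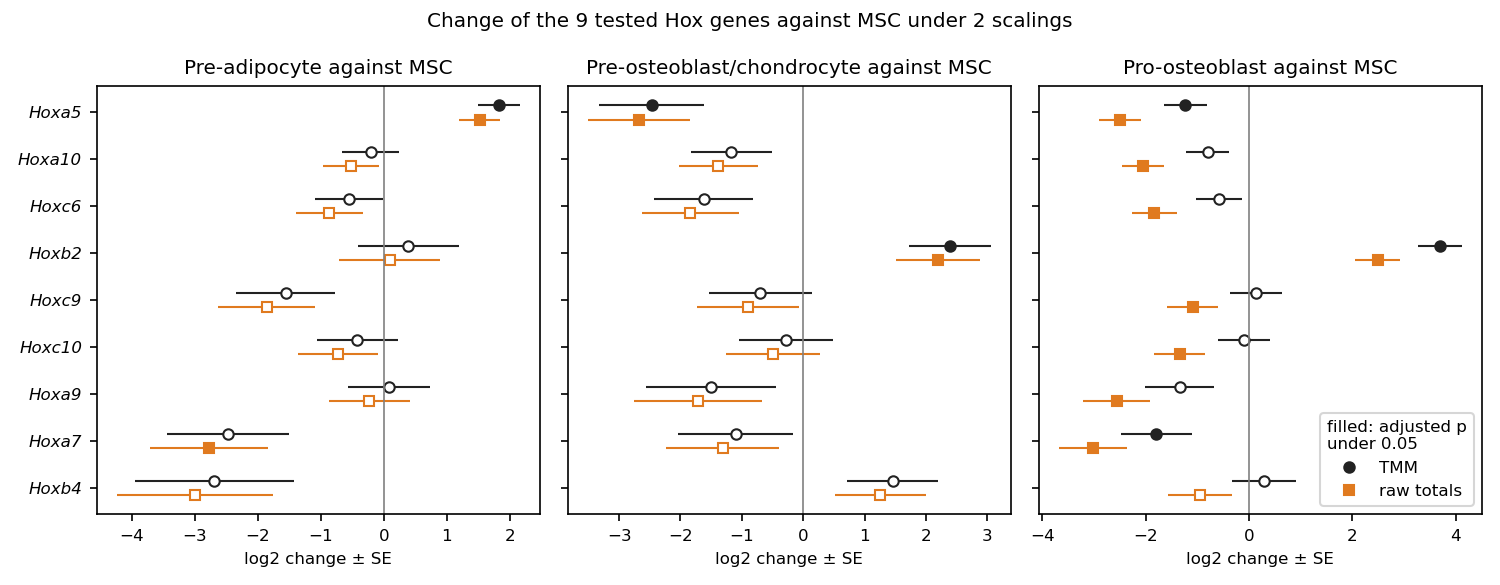
Log2 change against MSC with its standard error for the 9 tested Hox genes in 3 classes, with TMM scaling (black circles) and with raw totals (orange squares); filled symbols have an adjusted p under 0.05. Values shift to the left on raw totals in each class, with the median going from -0.42 to -0.73 in Pre-adipocyte, from -1.10 to -1.31 in Pre-osteoblast/chondrocyte and from -0.58 to -1.83 in Pro-osteoblast, where Hoxb2 is at 2.49.

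In single cells the Hox signal was sparse. Of the passing cells, 1630 had no Hox count, 896 had 1 member detected, 250 had 2, 60 had 3 and 11 had 4 or more, with at most 5 members in a cell. At least 1 Hox count was found in 42.1% of MSC cells (95% Clopper-Pearson interval 39.5 to 44.9), 44.1% of Adipocyte progenitor, 40.8% of Pre-adipocyte, 37.9% of Osteoblast progenitor, 44.0% of Pre-osteoblast/chondrocyte and 50.4% of Pro-osteoblast cells (45.0 to 55.8). With each cell thinned to 500 counts, which left out no passing cell, the shares were 21.4% in MSC (19.2 to 23.7), 19.9%, 18.0%, 19.8% and 24.2% in the next 4 classes and 10.7% in Pro-osteoblast (7.62 to 14.4). Pro-osteoblast thus moved from the highest to the lowest of these 6 shares at equal total counts. Thinned shares are relative to all counts, of which the 6 osteoblast genes hold a large part in Pro-osteoblast. They therefore carry the same limit as the raw CPM values, whose order depended on the scaling. As a background, erythroid-like barcodes outside the filter, with a median of 6245 counts, had a Hox count in 13.1% of 1203 barcodes and in 2.0% after thinning. They had the lowest summed Hox level of the typed groups outside the filter. It was 28.1 CPM, against 73.9 in neutrophil-like, 86.7 in B lineage-like and 678 in endothelial-like barcodes.

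**Figure D5:**
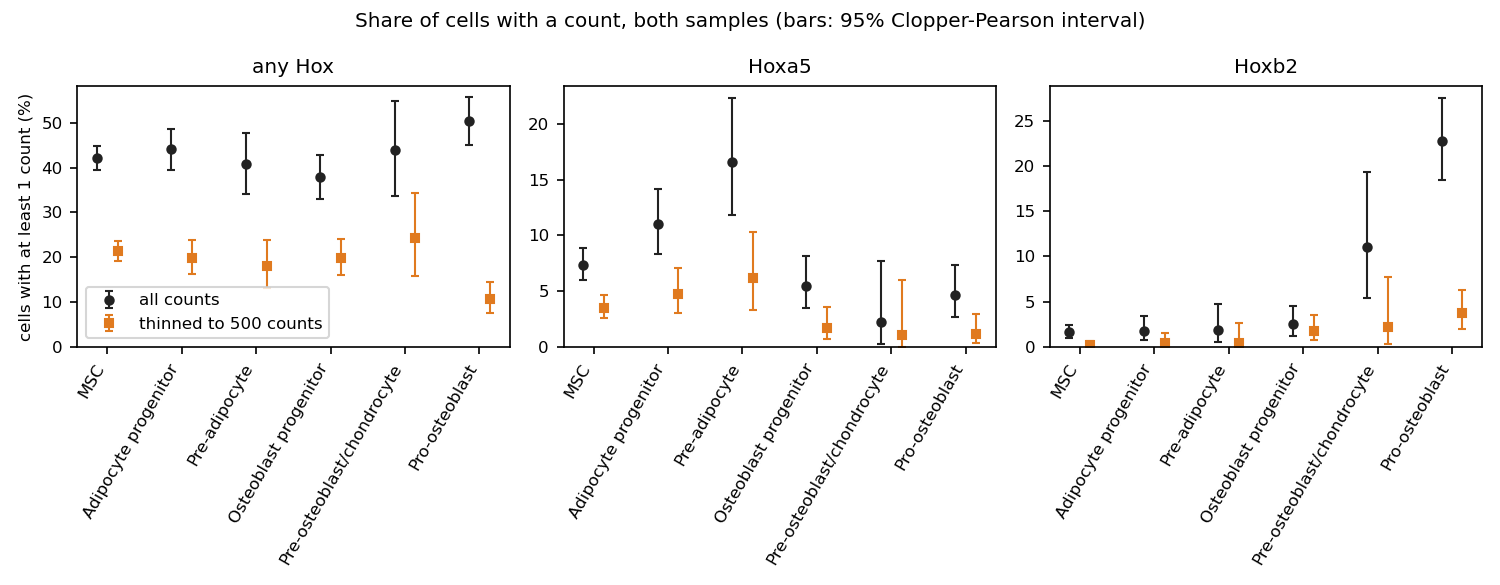
Share of cells with at least 1 count of any Hox gene, of Hoxa5 and of Hoxb2 in each class over both samples, with all counts (black circles) and after thinning each cell to 500 counts (orange squares); bars are 95% Clopper-Pearson intervals, which cover counting error only. The share with any Hox count is highest in Pro-osteoblast with all counts (50.4%) and lowest there after thinning (10.7%), and Hoxb2 is highest in Pro-osteoblast on both scales. Thinning makes total counts equal and does not apply the TMM scaling.

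Hoxb2 was found in 79 of 347 Pro-osteoblast cells (22.8%, 18.5 to 27.5), with at most 4 counts in a cell, and in 10 of 91 Pre-osteoblast/chondrocyte cells (11%). The other classes had 1.59% (MSC), 1.73% (Adipocyte progenitor), 1.90% (Pre-adipocyte) and 2.48% (Osteoblast progenitor), against 0.582% in the erythroid-like background. After thinning the share was 3.75% in Pro-osteoblast (2.01 to 6.32) and 0.228% in MSC (0.0470 to 0.664), which are 13 and 3 cells. Hoxa5 was found in 16.6% of Pre-adipocyte cells (11.8 to 22.3), 11% of Adipocyte progenitor, 7.37% of MSC, 5.45% of Osteoblast progenitor and 4.61% of Pro-osteoblast cells, against 0.914% in the erythroid-like background. The Hoxa5 level differed widely between the groups outside the filter. It was 1.84 CPM in erythroid-like, 18.9 in B lineage-like and 277 in endothelial-like barcodes, and 0 in neutrophil-like ones (95% interval up to 34.1). Thinned, it was at 6.16% in Pre-adipocyte (3.32 to 10.3) and 3.49% in MSC (2.57 to 4.63), so the share of cells separated the classes less clearly than the summed level did.

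The authors' pseudotimes order cells from MSC along paths to osteoblasts, chondrocytes and adipocytes, and each path was divided into 3 parts of equal cell number. On the osteoblast path Hoxb2 had 19.7 and 4.03 CPM in the early part, 10.6 and 21.8 in the middle part and 60.7 and 64.8 in the late part. On the chondrocyte path it had 18.7 and 4.21 CPM early and 28.5 and 24.7 late. On the adipocyte path Hoxa5 had 55.0 and 81.2 CPM early, 56.1 and 79.4 in the middle and 103 and 132 late, while on the osteoblast path it went from 53.4 and 80.5 CPM early to 26 and 18.9 late. These parts hold the same cells as the classes, so they describe where along a path the levels differ and are no separate evidence. The late part of the osteoblast path was mostly Osteoblast progenitor in Stroma1 (62.5%) and mostly Pro-osteoblast in Stroma2 (60.3%), so its 2 values come from different mixes of cells.

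TALE homeobox genes, which include the Hox cofactors of the Pbx, Meis and Pknox families and the repressors Tgif1 and Tgif2, were read from a list of 11, of which 8 could be tested. In Pre-adipocyte, where neutrophil markers were also high, 4 were called higher than in the mean of the other classes and 0 lower. The median log2 change of the 8 was 1.22, against 0.02 for all genes, of which 20.7% were called in either direction. In MSC 1 was called higher (20.6% of all genes in either direction), in Pre-osteoblast/chondrocyte 1 lower (12.2%), and in the remaining progenitor classes 0. Tgif1, a repressor of the TGF-beta pathway, was at 113 ± 69.6 CPM in Pre-adipocyte (SD, n = 2) and 10.1 ± 3.21 in MSC. Its log2 change in Pre-adipocyte against the mean of the other classes was 3.79 (SE 0.54, edgeR adjusted p = 1.3e-08). Against the same mean, Tgif2 was higher by 2.45 (SE 0.45) and Pknox2 by 1.94 (SE 0.61). The Pknox2 call was lost without library 1.2 (edgeR adjusted p = 0.0582), library 2.2 (0.0585) or library 2.3 (0.0515). In Pro-osteoblast 3 were called lower and 0 higher (median -0.42, against 0.03, with 17.9% of all genes called lower and 21.4% higher): Meis2 at 1 count against 71 in MSC, Pknox2 at 1 count against 72 and Tgif2 at 3 counts against 60. Their log2 changes against the mean of the other classes were -4.76 (SE 0.87), -3.91 (SE 1.02) and -3.07 (SE 0.75), and these 3 calls held in all 11 other fits.

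Of 22 limb and body position factors, 10 could be tested. Unless MSC is named as the reference, their calls and log2 changes are against the mean of the other classes. In Pre-adipocyte 1 was called higher, Irx3 (190 ± 38.2 CPM against 58.2 ± 14.7 in MSC, log2 change 1.82, SE 0.29), and 0 lower, against 20.7% of all genes in either direction. In Pro-osteoblast 2 were called higher and 2 lower (21.4% and 17.9% of all genes), a share near that of all genes, in MSC 2 lower (9.46%), in Pre-osteoblast/chondrocyte 1 higher (12.2% in either direction) and in both progenitor classes 0. Dlx3, a factor of bone and tooth formation, had 79 counts in Pro-osteoblast (45.8 ± 4.39 CPM) and 0 in MSC and Osteoblast progenitor; it was called by edgeR (adjusted p = 7.7e-12) and not by DESeq2 (0.223). Irx5 was at 65.1 ± 1.47 CPM in Pro-osteoblast and at 25.9 ± 2.16 in MSC. Its log2 change was 1.57 (SE 0.30) against the mean of the other classes and 2.45 (SE 0.38) against MSC. The call against the mean was lost on raw totals (0.48, edgeR adjusted p = 0.168). Msx1 was at 4.05 ± 1.83 CPM in Pro-osteoblast and at 45.7 ± 10.9 in MSC. Its log2 change was -2.49 (SE 0.64) against the mean of the other classes and -2.52 (SE 0.67) against MSC. Irx3 was at 9.56 ± 5.97 CPM in Pro-osteoblast. It had a log2 change of -1.59 (SE 0.38) against the mean of the other classes and was not called lower against MSC.

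Of 8 upstream factors, 3 could be tested. Rara, a retinoic acid receptor, was called lower in Pro-osteoblast than in the mean of the other classes (log2 change -1.88, SE 0.54, edgeR adjusted p = 0.00274), as were 17.9% of all genes. Of the noncoding RNAs of the Hox clusters, 10 had a column and none reached the count filter. Hotairm1 led with 77 counts (29 in MSC, 16 in Pro-osteoblast and 0 in Pre-osteoblast/chondrocyte), and the others had 0 to 9.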

How the data were processed

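RNA of single cells from 2 samples of mouse bone marrow stroma was measured with inDrops. The authors deposited a table of whole-number counts for each gene and barcode; the submitters' processing notes name Bowtie 1.1.1 and the GRCm38 genome, and the sources used here do not name the counting tool or its annotation, nor whether molecular identifiers and strand were used. Further columns deposited as fractions (0 to 1, per the file headers) hold the mitochondrial share of a barcode and pseudotimes on 3 paths. Labels of sample, library, filter and class are the authors'; no doublet caller was run.

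Counts of the 2847 passing cells were summed per sample and class and scaled to 1000000 counts (CPM), with exact 95% Poisson intervals. The 6 classes with at least 15 cells in each sample entered one fit in edgeR 4.0.16 under R 4.3.3, with TMM, filterByExpr with a minimum count of 10, terms for class and sample, quasi-likelihood tests, and Benjamini-Hochberg adjustment over 6229 genes with a threshold of 0.05. Standard errors are the log2 change over the square root of F. Intervals of cell shares are 95% Clopper-Pearson, unthinned and with cells thinned to 500 counts; the floor for a 0 is 3 counts. Barcodes outside the filter were typed by marker lists (at least 5 counts of 1 list and more than of the others). The edgeR step was tested on simulated data. Alternatives were DESeq2 1.42.0, its size factors, no filter, no sample term, and each barcode once per sample; raw totals and leaving out each library were chosen after seeing the data. Hox genes are named by their counts: tested members with values in every class and sample, other detected ones with counts per sample and their main class, undetected ones with the floor. From each list of other genes, at most 4 called genes with the largest changes are named. Some members, list genes and sequences are not reported here. The members and lists were chosen with earlier results of these data known. Gene positions and lengths are from GENCODE M21 (GRCm38).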

Additional observations from a re-analysis of the deposited data

Results flagged for a closer look

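Hox counts were also present in barcodes that the authors' filter did not pass, which no comparison between classes uses. Endothelial-like barcodes (196, with 263959 counts), typed by endothelial markers (13832 CPM against 31.6 in passing cells) in a sort negative for CD31, had a summed Hox level of 678 CPM (95% interval 582 to 785), above the 398 CPM (381 to 415) of all passing cells. Hoxa5 was at 277 CPM (217 to 348; 59.5 in passing cells), Hoxb3 at 64.4 (12.5), Hoxb4 at 79.6 (19.8) and Hoxd8 at 34.1 (7.67). The middle Hoxb genes, near 0 in the passing cells, stood at 34.1 CPM for Hoxb6 (0.561), 45.5 for Hoxb7 (0.935), 18.9 for Hoxb8 (0.935) and 34.1 for Hoxb9 (1.68). Together Hoxb6 to Hoxb9 had 7 counts in Stroma1 (53.3 CPM) and 28 in Stroma2 (211 CPM), against 3.62 and 4.34 CPM in passing cells. Hoxa10, Hoxc9 and Hoxc10 together had 3 counts (11.4 CPM) against 108 CPM in passing cells, and Hoxb2 and Hoxc6 had 0. These genes were singled out after their values were seen, the intervals cover counting error only, and no test between samples was made. Barcodes typed as blood cells were lower: B lineage-like ones had 86.7 CPM, neutrophil-like ones 73.9 and erythroid-like ones 28.1.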

How the results depend on the processing

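The calls, counts, sums and shares recomputed under the alternatives gave 507 pairs of a value and an alternative. Of these, 407 were labelled the same, 37 had lost a call and 63 had moved. A reversal of direction could be found only for log2 changes of called genes, and 0 of those reversed. Changes that were not called are not among the 507 pairs, and some did turn on raw totals. Hoxc9 in Pro-osteoblast against MSC went from 0.14 to -1.09, and the median of the 9 members in Osteoblast progenitor from -0.09 to 0.25. Of the 12 Hox calls, 4 were kept in all 11 other fits: Hoxb2 in Pro-osteoblast and Hoxa5 in Pre-adipocyte, each in both comparisons. Counts of called members moved by over 1.5 times as follows. DESeq2 called 1 in MSC and 1 in Pre-osteoblast/chondrocyte (in both comparisons); no filter called 1 in MSC; each barcode once called 1 in Pre-osteoblast/chondrocyte against the mean; DESeq2 size factors called 2 in Pro-osteoblast against the mean. Raw totals called 6 in MSC, 6 in Pro-osteoblast against the mean and 8 against MSC, and 2 in Pre-adipocyte against MSC. Against the mean, leaving out library 1.1, 2.1, 2.2 or 2.3 called 0, 1, 1 and 1 in MSC and 1, 0, 0 and 0 in Pre-osteoblast/chondrocyte; library 1.2 gave 2 in Pre-adipocyte and library 2.3 gave 2 in Pro-osteoblast. Against MSC, leaving out library 1.2, 2.1, 2.2 or 2.3 called 1, 1, 0 and 1 in Pre-osteoblast/chondrocyte, and library 2.1 gave 1 in Pro-osteoblast. The raw totals differ by construction in the scaling; for the other alternatives the cause was not tested. Scaled by TMM totals, the Hox sums were 453 CPM in MSC, 382 in Osteoblast progenitor and 454 in Pro-osteoblast, and with each barcode once 366 in Pre-osteoblast/chondrocyte. Thinning to 500 counts moved the shares of cells with a Hox count to 21.4% in MSC, 19.9% in Adipocyte progenitor, 18.0% in Pre-adipocyte, 19.8% in Osteoblast progenitor, 24.2% in Pre-osteoblast/chondrocyte, 7.14% in Pro-chondrocyte and 10.7% in Pro-osteoblast. Requiring a count in each sample left 30 of 34 members detected.

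The sample number served as the replicate block of the fits, since both samples hold all classes; without the block, the same numbers of members were called in all 11 comparisons (2 in MSC and 3 in Pro-osteoblast against MSC, for example). Leaving out a whole sample left no residual degrees of freedom, so such fits gave values and no calls. With 2 samples and 2126 Hox counts, 30 members were too low to test, and at this depth their absence from a class cannot be told from a low level.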
